A study of Mus musculus with 2 samples.

Results

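The Ikaros family comprises 5 mouse genes, Ikzf1 to Ikzf5, and this is an account of their RNA in G1E cells. The members were taken as the gene rows that carry those symbols, and all 5 were found among 43346 genes, with 32 of 103639 annotated transcripts. G1E is an immortalized mouse line, labelled as a male, postnatal erythroid progenitor of strain C57BL/6J that is Gata1-, Gata1 being the factor red cell precursors need to mature. Total RNA was sequenced after removal of ribosomal RNA, from 100 ng per library. The series held 1 group of 2 biological replicates, with no treatment named and both traced to 1 donor record, so no comparison between conditions exists. Both libraries carry the Gata1- label, and no cells with Gata1 were analysed here.

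Ikaros proteins are zinc finger transcription factors best known for directing lymphocyte development. Fingers near the amino end bind DNA, and a pair of fingers at the carboxyl end joins family members into homodimers and heterodimers. Alternative splicing of the exons that hold the DNA-binding fingers gives isoforms, and those with too few such fingers pair with full-length proteins and block their binding. In the erythroid lineage Ikaros is known for its part in globin switching and as a partner of the NuRD chromatin remodelling complex. Ikzf1 encodes Ikaros, Ikzf2 Helios, Ikzf3 Aiolos, Ikzf4 Eos and Ikzf5 Pegasus.

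The fingers set the family apart at the sequence level, so 1 of the DNA-binding fingers is shown for each member. In each gene the coding transcript longest in nt, which is not always longest in coding sequence, was searched in its coding sequence for the C2H2 pattern. This pattern is 2 cysteines with 2 residues between them, then 12 residues, then 2 histidines 3 to 5 residues apart. Ikzf1-204, the 515-residue form of Ikaros, held 6 matches, numbered from the amino end: 4 in the first part of the protein and 2 at the carboxyl end. Helios (526 residues) and Eos (586 residues) also held 6 matches, whereas Aiolos (507 residues) and Pegasus (419 residues) held 5. Aiolos had no match in exon 6, where Ikaros, Helios and Eos each held match 4, although its exon 6 is annotated as coding. Here and below, a finger that departs from the pattern is not counted. The 5 matches therefore do not show that Aiolos lacks a finger, and its exon 6 was not searched for other patterns. The bases that encode finger 2 of Ikaros, or in Pegasus the finger most like it, read as follows on the coding strand of GRCm38, with the codons of the 2 cysteines and 2 histidines in capitals.
Ikzf1 (chr11:11754024-11754086, + strand, exon 5): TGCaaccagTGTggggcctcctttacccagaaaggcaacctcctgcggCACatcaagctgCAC
Ikzf2 (chr1:69570581-69570643, - strand, exon 5): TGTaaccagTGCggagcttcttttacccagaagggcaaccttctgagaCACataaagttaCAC
Ikzf3 (chr11:98488940-98489002, - strand, exon 5): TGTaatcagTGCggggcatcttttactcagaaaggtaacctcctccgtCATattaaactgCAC
Ikzf4 (chr10:128640229-128640291, - strand, exon 5): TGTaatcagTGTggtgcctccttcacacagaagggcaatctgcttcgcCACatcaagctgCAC
Ikzf5 (chr7:131393759-131393821, - strand, exon 3): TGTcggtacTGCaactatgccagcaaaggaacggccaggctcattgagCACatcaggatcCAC
All 21 residues of this finger were identical in Ikaros, Helios, Aiolos and Eos, although only 81.0% of the bases matched Ikzf1 in Ikzf2 and in Ikzf3 and 84.1% in Ikzf4. The most similar finger of Pegasus shared 6 of 21 residues with Ikaros (28.6%) and 46.0% of its bases. Pegasus was closer at the carboxyl end, where its last finger matched 11 of 23 residues of Ikaros (47.8%), against 20 of 23 for Helios and for Aiolos and 21 of 23 for Eos. These identities come from the reference genome and describe the genes, not the RNA of G1E.

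The libraries held 58094631 and 55274368 expected counts on genes, that is, reads as apportioned among genes by the authors' quantification. A count of 0 therefore allowed up to 3 counts, or 0.0516 and 0.0543 CPM (counts scaled to library size). Levels are given as TPM, transcript abundance corrected for length and scaled to a fixed total per library. Nuclear protein-coding genes took 18.0% and 17.0% of all TPM, so a rescaled TPM in which they alone make up the whole is given beside it where it matters. The gene named in the label, Gata1, was listed at 7.06 and 7.13 TPM from 1862 and 1922 counts. That gene row covers all annotated transcripts, and whether any targeted part of Gata1 held reads was not tested. Detection was set at 1 TPM or more in both libraries, which 21.0% of all genes and 38.7% of 21461 nuclear protein-coding genes reached. Of 14 erythroid and progenitor markers all 14 were detected, led by the carbonic anhydrase gene Car2 (272 ± 4.19 TPM; SD, n = 2 here and below), the transferrin receptor gene Tfrc (106 ± 11.3) and the stem cell factor receptor gene Kit (88.5 ± 11.9). The lowest was the erythropoietin receptor gene Epor, at 2.74 ± 0.707 TPM. Of 14 myeloid and mast cell markers 5 were detected, near the share of nuclear protein-coding genes, led by mast cell carboxypeptidase Cpa3 (105 ± 11.3 TPM), the IL-33 receptor gene Il1rl1 (40.5 ± 3.27) and mast cell chymase Cma1 (36.2 ± 0.212), with summed levels of 198 and 178 TPM and with Mcpt8 and S100a8 at 0. The 10 pluripotency and fibroblast markers all fell short of detection, the highest being Col1a1 (0.17 ± 0.24 TPM), Pdgfra (0.07 in both libraries) and Col1a2 (0.06 ± 0.0566).

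Ikzf1 was the most abundant family member, and Ikzf5 and Ikzf2 were also detected, while Ikzf4 and Ikzf3 were not. By the same rule 3 of 5 members were detected, where 21.0% of all genes and 38.7% of nuclear protein-coding genes were. In bulk RNA, a gene used by few cells and a gene used weakly by all cells cannot be told apart.

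Ikzf1 (ENSMUSG00000018654.13, GRCm38 chr11:11685003-11772926, + strand) held 8271 counts in replicate 1 and 7441 in replicate 2. Its level was 11.21 TPM, within the authors' interval of 10.7 to 11.9, and 12.20 TPM, within 11.3 to 13.1 (the sources used here do not give the level of confidence of these intervals). The mean was 11.7 ± 0.7 TPM, which ranked 2719 among nuclear protein-coding genes. Ikzf1 was the highest member in both libraries, and it supplied 62.5% and 68.9% of the family's summed 17.93 and 17.71 TPM.

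Ikzf5 (ENSMUSG00000040167.11, chr7:131388652-131410521, - strand) held 2835.54 and 2309.73 counts. Its level was 4.17 TPM in replicate 1 (authors' interval 3.97 to 4.67) and 3.31 TPM in replicate 2 (3.18 to 3.61), a mean of 3.74 ± 0.608. Pegasus, the product, is the family member least like Ikaros in its DNA-binding fingers, and its RNA was the next most abundant in both libraries, at 23.3% and 18.7% of the family's TPM. Ikzf2 (ENSMUSG00000025997.9, chr1:69531214-69687245, - strand) held 2330 and 1988 counts. Its level was 2.11 TPM (authors' interval 2.04 to 2.35) and 1.67 TPM (1.61 to 1.94), a mean of 1.89 ± 0.311. Helios, which it encodes, is best known in regulatory T cells and haematopoietic stem cells, and Ikzf2 was the lowest of the 3 detected members, with rank 7500 among nuclear protein-coding genes against 5981 for Ikzf5.

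Ikzf4 (ENSMUSG00000002578.11, chr10:128630843-128645991, - strand), whose product Eos is a corepressor partner in regulatory T cells, held 221 and 184 counts. Its level was 0.31 TPM in replicate 1 and 0.49 TPM in replicate 2, a mean of 0.4 ± 0.127. The authors' intervals were 0.317 to 0.635 and 0.423 to 0.832, so the point value of replicate 1 fell just below its own interval, and the authors' posterior means were 0.46 and 0.62 TPM. On the rescaled TPM Ikzf4 stood at 2.3 ± 0.827, above 1 in both libraries, so its call of not detected holds for TPM and ends on that scale. Ikzf3 (ENSMUSG00000018168.8, chr11:98464902-98546031, - strand), whose product Aiolos acts in late B cell development, held 33 and 19 counts. It was listed at 0.13 TPM (authors' interval 0.0927 to 0.225) and 0.04 TPM (0.0298 to 0.0983), and its rescaled level was 0.478 ± 0.343. Ikzf3 was thus the lowest member in both libraries, with counts above 0 in each. Its 0.13 TPM in replicate 1 lay above and its 0.04 TPM in replicate 2 below the median of nuclear protein-coding genes, which was 0.055 TPM over the mean of both libraries.

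**Figure D1:**
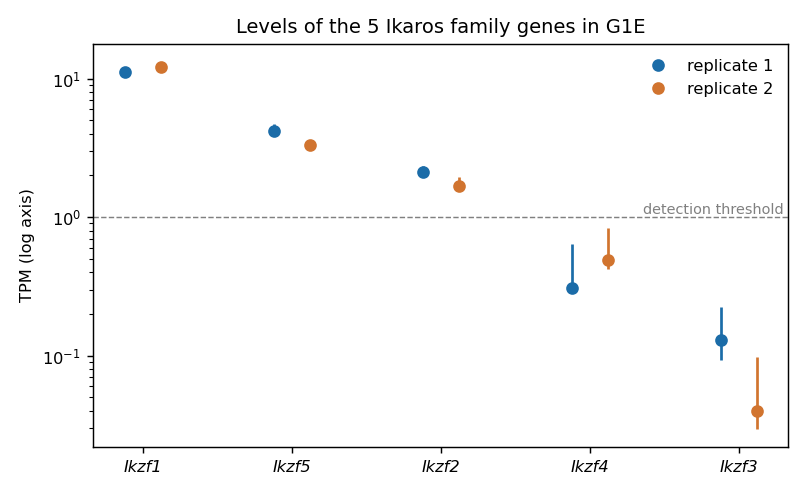
Level of each Ikaros family gene in the 2 G1E libraries, in TPM on a log axis; points are the deposited values, vertical lines the authors' intervals and the dashed line the detection threshold of 1 TPM. Ikzf1, Ikzf5 and Ikzf2 lie above the threshold in both libraries, and the order of the 5 genes is the same in each.

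The order Ikzf1, Ikzf5, Ikzf2, Ikzf4, Ikzf3 was the same in both libraries, and for all 10 pairs the authors' intervals of the 2 genes did not overlap in either library. The spread between replicates set a stricter test. With 2 libraries no exact test can give a two-sided p below 0.5, so each log2 ratio of TPM + 0.1 was set against 3 times the square root of 2 times the replicate SD, pooled over all genes of like level (0.595 to 0.756 on the log2 scale). This SD was wide: at 10 to 100 TPM it was 0.756 over all genes and 0.193 over nuclear protein-coding genes alone. By the limit from all genes 4 of 10 pairs differed. Ikzf1 exceeded Ikzf3 by a log2 ratio of 6.04 ± 0.59 and Ikzf4 by 4.58 ± 0.29, both against a limit of 3.21. Ikzf5 exceeded Ikzf3 by 4.41 ± 0.28 and Ikzf2 exceeded Ikzf3 by 3.46 ± 0.28, both against 2.82.

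Neighbours in the order did not differ beyond this spread. Ikzf1 stood above Ikzf5 by a log2 ratio of 1.41 in replicate 1 and 1.85 in replicate 2, and above Ikzf2 by 2.36 and 2.80, both under the limit of 3.21. Ikzf5 stood above Ikzf2 by 0.95 in each library, under the limit of 2.8. Ikzf4 stood above Ikzf3 by 0.83 and 2.08 and below Ikzf2 by 2.43 and 1.58, under the limit of 2.82. Ikzf5 against Ikzf4 passed the limit of 2.82 in replicate 1, at 3.38, and not in replicate 2, at 2.53. When the SD was pooled over nuclear protein-coding genes alone, an alternative added after seeing the data, the SDs were 0.193 to 0.401 and 8 of 10 pairs passed. The 2 that did not were Ikzf2 against Ikzf4 and Ikzf4 against Ikzf3, so with this spread Ikzf1, Ikzf5 and Ikzf2 were each apart from one another.

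No family member moved by 2-fold between the libraries. After TMM scaling, the ratio of counts in replicate 2 to replicate 1 was 1.01 for Ikzf1 (95% exact interval 0.98 to 1.04), 0.96 for Ikzf2 (0.90 to 1.02) and 0.92 for Ikzf5 (0.87 to 0.97). The sparser genes had wider intervals, 0.94 for Ikzf4 (0.77 to 1.14) and 0.65 for Ikzf3 (0.35 to 1.17). These intervals cover counting error only. Of the 18383 genes whose counts summed to 10 or more, 22.2% differed by 2-fold or more, 6.73% higher and 15.4% lower in replicate 2. That share was 0.717% among genes with a mean of at least 1000 counts, where Ikzf1, Ikzf2 and Ikzf5 lie, and 52.3% among genes with a mean under 50 counts, where Ikzf3 lies.

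TPM and counts gave different ratios between the libraries for all 5 members. The log2 ratio of replicate 2 to replicate 1 was 0.12 for Ikzf1 in TPM and 0.02 in scaled counts, whereas the median detected nuclear protein-coding gene stood at -0.14 in TPM and 0.06 in scaled counts. The excess of the TPM ratio over the count ratio was 0.10 for Ikzf1, and 1.67% of those genes had a larger one. For Ikzf4 the log2 ratio was 0.66 in TPM and -0.09 in scaled counts, and for Ikzf3 it was -1.70 and -0.63, so that Ikzf3 passed the 2-fold limit in TPM alone. For Ikzf2 the ratios were -0.34 in TPM and -0.06 in scaled counts, and for Ikzf5 -0.33 and -0.13, gaps of -0.28 and -0.21 where the median gene had -0.20.

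Short annotated transcripts moved with the gap for Ikzf1 and Ikzf4, the members whose TPM ratio exceeded their count ratio. The 2 Ikzf1 transcripts under 500 nt, Ikzf1-205 of 446 nt and Ikzf1-206 of 242 nt, together held 14.66 counts in replicate 1 and 45.53 in replicate 2. These were 0.177% and 0.612% of the gene's counts but 6.24% and 18.2% of its TPM, since effective length is short for such models (49.5 and 64.8 nt for Ikzf1-206). Over transcripts of at least 500 nt, Ikzf1 stood at 10.51 and 9.97 TPM, a log2 ratio of -0.08. For Ikzf4, short transcripts held 1 and 5.27 counts, or 0.452% and 2.86% of counts against 12.9% and 38.8% of TPM, and without them the log2 ratio fell from 0.66 to 0.15. Among 3307 detected genes with short transcripts, the median TPM share of these was 2.14% and 2.12%, and 34.0% and 17.2% of genes had a larger share than Ikzf1. Ikzf3 had no transcript that short, and its log2 ratio remained -1.70.

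**Figure D2:**
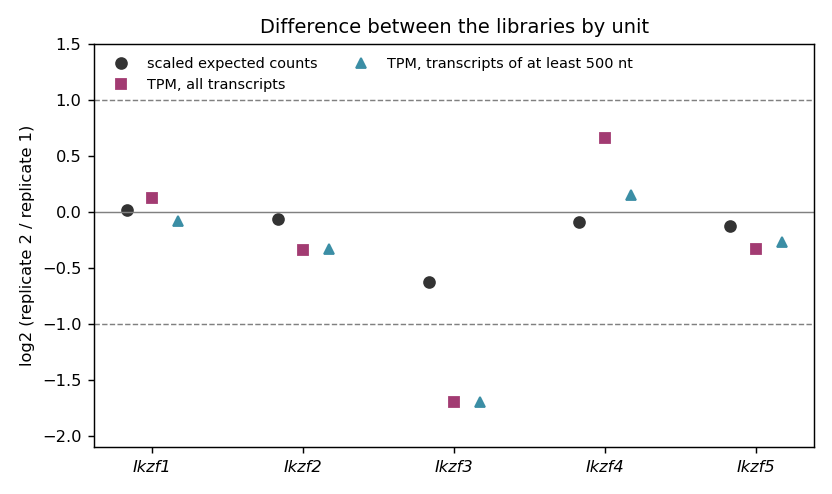
Log2 ratio of replicate 2 to replicate 1 for each Ikaros family gene, from TMM-scaled expected counts (circles), TPM (squares) and TPM over transcripts of at least 500 nt (triangles); dashed lines mark 2-fold. Counts lie within 2-fold for all 5 genes, and Ikzf3 passes in both TPM measures.

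The model of full-length Ikaros held the largest share of Ikzf1 TPM in both libraries. Transcripts are numbered as in GENCODE M21, and the share of a transcript in its gene's TPM is the authors' IsoPct. Ikzf1-204 (5163 nt, 8 exons), which encodes the 515-residue protein with all 6 fingers, held 84.44% in replicate 1 and 63.23% in replicate 2, from 7910.13 and 6529.92 counts. The 21.21-point fall was larger than in most genes, since 7.1% of detected genes with at least 2 transcripts had a larger change of their leading transcript. Counts moved less, from 95.6% to 87.8% of the gene.

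Other Ikzf1 transcripts took the rest. Ikzf1-202 (911 nt, 3 fingers) held 5.84% and 11.06%, from 77.29 and 165.37 counts, and Ikzf1-206 held 3.75% and 12.91% from 3.52 and 17.37 counts. Ikzf1-203 (4697 nt, 6 fingers), which differs from Ikzf1-204 in its ends and in 1 added exon, held 3.05% and 7.48%, from 258.94 and 700.17 counts. Ikzf1-205 held 2.51% and 5.31%. Ikzf1-201 (1542 nt, 5 fingers) was nearly absent, at 0.40% from 9.98 counts and then 0. All 4 of the lesser transcripts with counts in both libraries were higher in replicate 2, and the authors' intervals for their TPM did not overlap between libraries for Ikzf1-202 (0.408 to 0.848 and 1.04 to 1.60) and Ikzf1-203 (0.242 to 0.454 and 0.773 to 1.07). For Ikzf1-205 (0.142 to 0.490 and 0.415 to 0.952) and Ikzf1-206 (0.0997 to 1.04 and 0.763 to 2.50) they overlapped.

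A pair of exons is present in some of these Ikzf1 transcripts and absent from others, and both exons are shown here. The transcripts also differ in their ends, and which of these differences sets the shares was not tested. The finger 1 exon is exon 4 of Ikzf1-204 and is coding throughout; capitals mark the bases of finger 1. The 60 nt exon is annotated in Ikzf1-203 alone and is also coding.
Ikzf1 finger 1 exon (chr11:11748311-11748571, + strand): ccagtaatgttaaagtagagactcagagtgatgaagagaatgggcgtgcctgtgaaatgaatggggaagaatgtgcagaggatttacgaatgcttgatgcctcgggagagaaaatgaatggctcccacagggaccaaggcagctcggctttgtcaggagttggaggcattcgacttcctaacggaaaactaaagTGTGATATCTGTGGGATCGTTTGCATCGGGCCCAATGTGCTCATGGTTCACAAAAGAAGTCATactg
Ikzf1-203 added exon (chr11:11740950-11741009, + strand): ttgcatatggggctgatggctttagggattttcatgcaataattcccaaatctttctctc
Ikzf1-203 and Ikzf1-204 contain the finger 1 exon whole, and Ikzf1-201, Ikzf1-202 and the shorter Ikzf1-205 leave it out. Ikzf1-202 also ends before exon 8, which in Ikzf1-204 holds fingers 5 and 6, the pair at the carboxyl end. Among the 4 coding transcripts of at least 500 nt, Ikzf1-201 to Ikzf1-204, those with the exon held 93.3% and 86.5% of the TPM. They held 98.9% and 97.8% of the counts. Those without it held 6.66% and 13.5% of the TPM. Ikzf1-205 is too short to enter these shares, and it held 2.51% and 5.31% of the gene's TPM. Ikzf1-205 and Ikzf1-206 are models with no 3 prime end found, begin at the first annotated base of the gene and hold no finger match. Ikzf1-206 ends before the finger 1 exon. These shares are estimates from reads spread over a fixed set of models, and reads across the exon junctions were not analysed here.

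**Figure D3:**
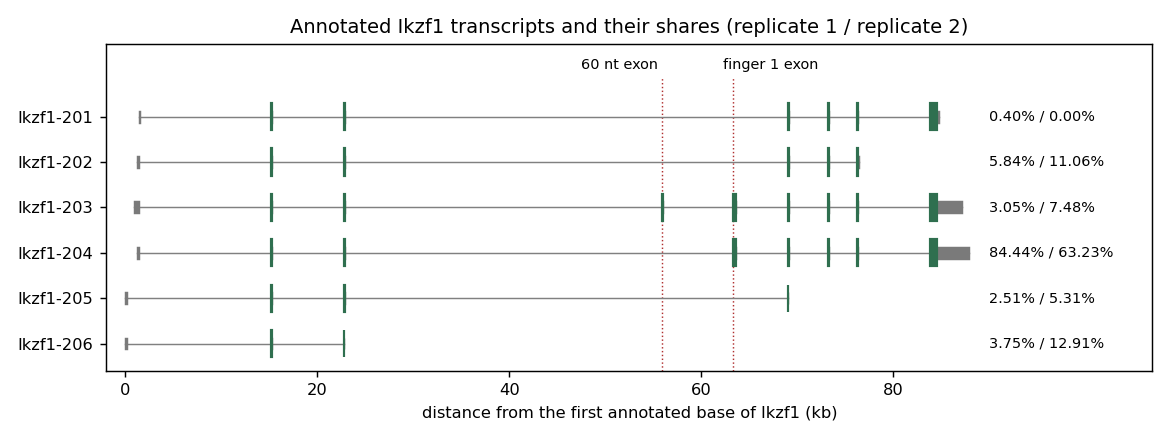
The 6 annotated Ikzf1 transcripts to scale, by distance in kb from the first annotated base of the gene; thick green boxes are coding, grey boxes are noncoding parts of exons, lines are introns and dotted lines mark the 2 exons named in the text. Shares of gene TPM at the right are for replicate 1 and replicate 2; Ikzf1-204, which holds the finger 1 exon, leads in both.

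Ikzf2 was led by its full-length transcript in both libraries. Ikzf2-201 (9278 nt), which encodes Helios with 6 fingers, held 65.38% and 71.05% of the TPM from 2112.1 and 1836.46 counts. Ikzf2-205, a retained intron model of 1905 nt, came next with 21.49% and 13.47%, from 129.65 and 65.66 counts. With Ikzf2-203, the other retained intron model, such transcripts held 26.7% and 20.4% of Ikzf2 TPM but 7.14% and 5.24% of its counts. Among 3682 detected genes with retained intron models the median TPM share was 12% and 11.6%, and 23.5% and 31.7% of these genes had a larger share than Ikzf2.

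Helios too has a form with a shortened finger 1 exon, shown because it is the only Ikzf2 form with such a change that held counts. In the Ikzf2 exon below, capitals mark the 78 bases that Ikzf2-202 leaves out, which include all 63 bases of finger 1.
Ikzf2 finger 1 exon (chr1:69577781-69578047, - strand): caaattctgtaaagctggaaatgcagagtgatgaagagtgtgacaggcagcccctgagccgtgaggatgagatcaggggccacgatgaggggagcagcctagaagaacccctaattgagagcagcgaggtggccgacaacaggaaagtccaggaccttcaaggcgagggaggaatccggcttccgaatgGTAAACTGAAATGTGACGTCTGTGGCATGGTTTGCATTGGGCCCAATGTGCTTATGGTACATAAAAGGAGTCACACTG
Ikzf2-202 (2013 nt, 5 fingers) held 7.20% and 6.71% of Ikzf2 TPM, from 46.21 and 34.79 counts. Among coding Ikzf2 transcripts of at least 500 nt, those with the whole exon held 90.3% and 91.7% of the TPM and 97.9% and 98.2% of the counts. By these estimated shares, Ikzf1 and Ikzf2 both had most of their coding TPM in models that keep finger 1. Those models include the ones with the longest last exons, 4046 nt in Ikzf1-204 and 8279 nt in Ikzf2-201. Reads in the far part of these exons fit no coding model that lacks finger 1. The shares therefore cannot decide how often finger 1 is kept, and the difference between the genes was not tested.

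Ikzf5 was almost a single transcript. Ikzf5-201 (4430 nt), which encodes Pegasus with 5 fingers, held 95.54% and 95.87% of the TPM, from 2833.54 and 2287.36 counts. Its change of 0.33 points was smaller than that of 92.5% of detected genes with at least 2 transcripts.

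Ikzf4 and Ikzf3, the members with the fewest reads, changed their leading transcript by IsoPct between the libraries. Ikzf4-201 (5150 nt, 586 residues, 6 fingers) held 83.46% in replicate 1 and 18.21% in replicate 2, from 216.03 and 75.81 counts. From the authors' posterior means its shares were 54.15% and 16.29%. In replicate 2 the leader by IsoPct was a transcript of 2688 nt, which matches Ikzf4-204 by length only. That transcript held 3.06% and 25.17%, from 3.97 and 52.75 counts. By share of the gene's counts Ikzf4-201 led in both libraries, at 97.8% and 41.2%, so the change of leader in Ikzf4 ends on that measure. A transcript of 3449 nt, like Ikzf4-208 in length, a model marked for nonsense-mediated decay, held 0 and 18.34%. Transcripts of 350 nt (13.48% and 24.17%) and 358 nt (0 and 14.10%) match noncoding models by length only. They rested on at most 3.27 counts in a library. In Ikzf3 the leader was Ikzf3-202, a noncoding model of 863 nt, in replicate 1 (76.06%, 11 counts) and the coding Ikzf3-201 of 3658 nt in replicate 2 (58.86%, 13 counts). Ikzf3-202 held 23.37% in replicate 2 from 1 count, and Ikzf3-201 held 6.53% in replicate 1 from 5 counts. Ikzf3-203, a retained intron model of 4607 nt, held 17.41% and 17.77%, from 17 and 5 counts, which in replicate 1 was 51.5% of the gene's counts.

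Over the family, 3 of 5 members had the same leading transcript in both libraries, where 88.2% of detected genes with at least 2 transcripts did. By share of counts in place of IsoPct, 4 of 5 members did. The 2 exceptions are the members below the detection threshold, so the shares are not over like genes. The median leader held 68.8% and 68.5% across those genes. Of the 32 member transcripts, 9 held 0 counts in both libraries.

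**Figure D4:**
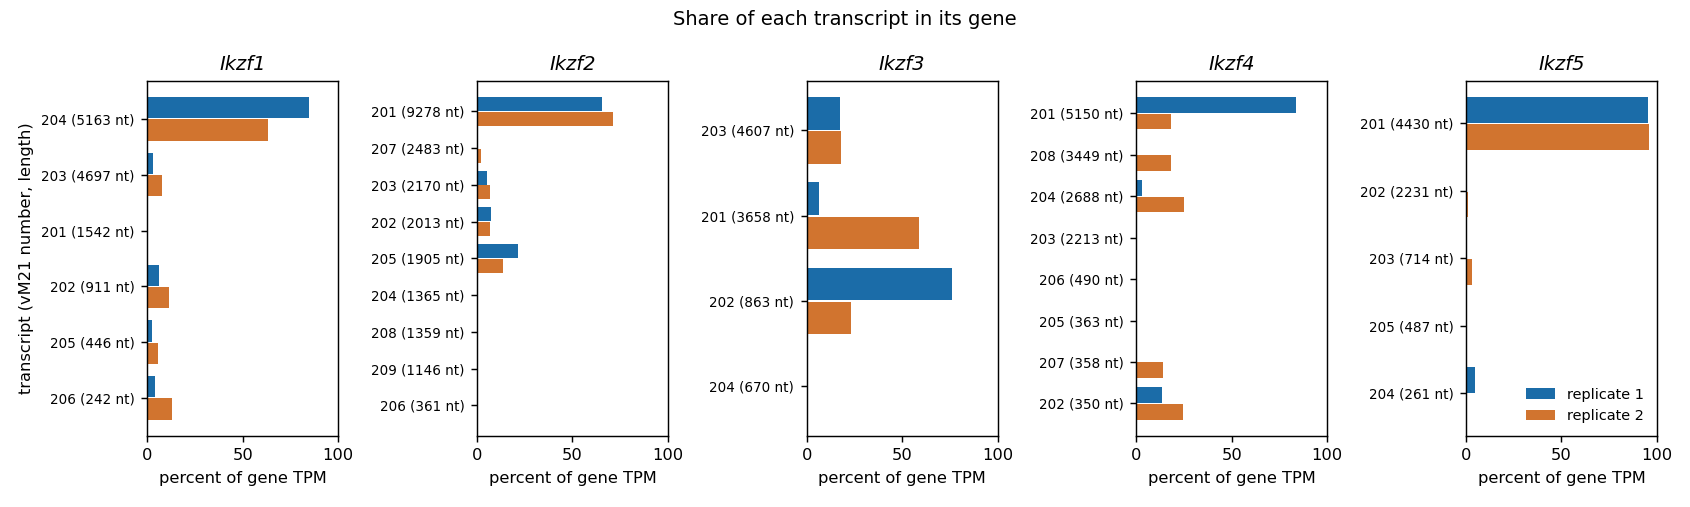
Share of each annotated transcript in its gene's TPM, in percent, for the 5 Ikaros family genes; bars are the 2 libraries, transcripts are numbered as in GENCODE M21 (for 7 of 8 Ikzf4 transcripts by equal length only) and given with their length in nt. The longest bars belong to the same transcript in both libraries for Ikzf1, Ikzf2 and Ikzf5, and to different ones for Ikzf3 and Ikzf4.

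Some genes overlap the members in the annotation, and the sources used here do not say whether counting used strand. These overlaps are of gene spans, introns included, and overlap of exons was not measured. Without strand, reads from bases where exons of opposite strands overlap cannot be told apart. The authors' posterior SD of the gene count, as a share of its mean, was 0 for Ikzf1 to Ikzf4 in both libraries. For Ikzf5 it was 0.000399 and 0.000624. Pstk, a selenocysteine pathway kinase gene on the opposite strand, overlaps 5831 nt of Ikzf5 and held 679 and 655 counts. Ikzf5 also overlaps Fgfr2 on the same strand (10.18 and 2.13 counts) and Gm44624 and Gm44625, for which no counts were matched. Ikzf3 overlaps Gm25106 (0 in both). The genes that overlap Ikzf1 are Gm11999 (3 and 11 counts) and Gm12000 (6 and 5), and Gm26876 (14 and 35) overlaps Ikzf4. For Ikzf2 they are Gm28112 (47 and 3), Gm29112 (27 and 15) and Gm29114 (20 and 8).

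The partners through which Ikaros proteins are known to act were nearly all detected. For these partner lists, the shares to set beside are 21.0% of all genes and 38.7% of nuclear protein-coding genes detected. Genes of other widely used complexes were not compared. All 13 NuRD genes passed 1 TPM in each library. The NuRD median was 11.4 ± 2.36 TPM, against 0.015 over all genes and 0.055 over nuclear protein-coding genes. The highest were the histone-binding gene Rbbp7 (105 ± 13.6 TPM), the remodelling ATPase Chd4 (61.9 ± 7.33) and the methyl-CpG-binding gene Mbd2 (47.5 ± 0.721). The lowest was the scaffold gene Gatad2b at 2.04 ± 0.361 TPM, close to Ikzf2.

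Of 14 other corepressors and remodellers bound by Ikaros proteins, 13 were detected, with a median of 9.84 ± 0.704 TPM. Ncor1 led with 34.4 ± 7.47 TPM, followed by Sin3b (33.4 ± 0.127) and Ctbp1 (21.5 ± 1.21), all corepressor scaffolds or adaptors.

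The ligase that carries cereblon, known in human cells to destroy Ikaros and Aiolos when lenalidomide-type drugs are bound, was detected in 6 of 6 listed genes. The highest were Ddb1 at 77.0 ± 2.76 TPM, Rbx1 at 31.0 ± 0.658 and Cul4a at 20.4 ± 0.707. The substrate receptor gene Crbn stood at 12 ± 0.594 TPM (chosen after its value was seen), near Ikzf1, and the lowest was Dda1 at 3.20 ± 0.283. Kinase CK2 and phosphatase PP1, which add and remove phosphates on Ikaros, were likewise detected in 6 of 6 genes. Ppp1ca (97.3 ± 7.8 TPM), Csnk2b (80.1 ± 7.25) and Ppp1cc (59.7 ± 1.41) led, and the catalytic subunit gene Csnk2a2 was lowest at 1.65 ± 0.304.

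Lymphoid genes known as Ikaros targets were nearly all below detection, where 21.0% of all genes and 38.7% of nuclear protein-coding genes reached it. Of 19 listed targets only Hes1, a Notch pathway repressor, was detected, at 14.95 and 13.96 TPM. Next came Lig4 (0.22 ± 0.0707 TPM) and Cd4 (0.18 ± 0.17), and Cd79b and Vpreb2 were listed at 0 TPM. None of 15 lymphoid cell markers was detected in TPM, with summed levels of 0.9 and 0.86 TPM over the list. The highest were Lck (0.345 ± 0.0495 TPM), Cd247 (0.22 ± 0.0566) and Il2ra (0.13 ± 0.0707). On the rescaled TPM, 2 of these 15 markers passed 1. Whether Ikaros acts on any of the listed genes in G1E was not tested.

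**Figure D5:**
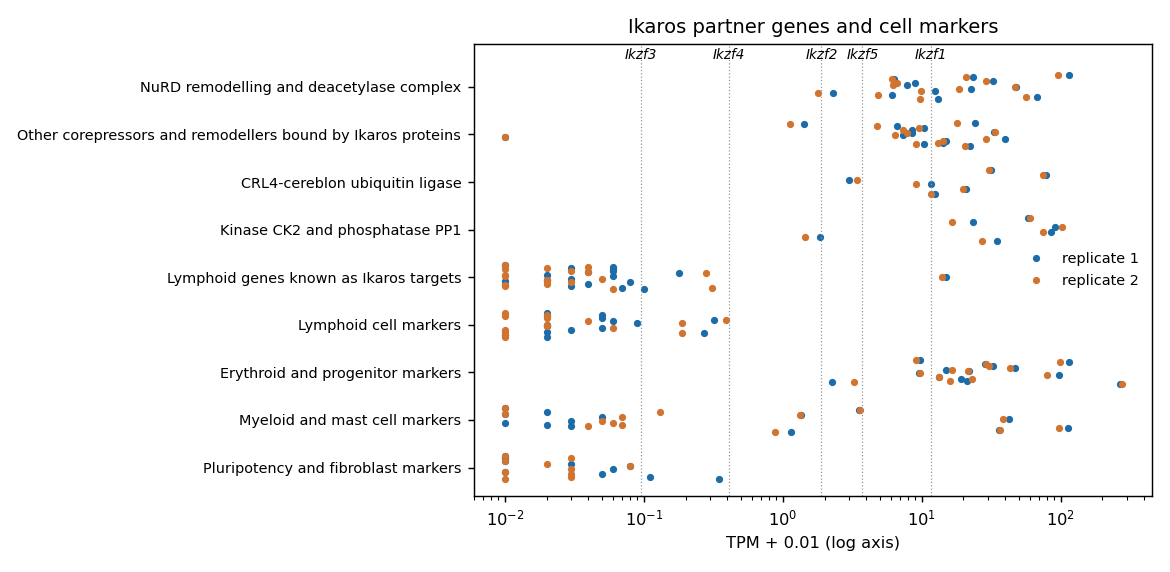
TPM + 0.01 on a log axis for every gene of the partner and marker lists, 1 point per gene and library; dotted vertical lines give the mean level of each Ikaros family gene. The partner lists lie mostly to the right of Ikzf2 and the lymphoid lists to the left of Ikzf2 except Hes1.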

How the data were processed

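Total RNA-seq of 2 G1E libraries was analysed from the tables the authors deposited. Per the file headers these give, for each gene and transcript, expected counts (estimated reads), TPM, FPKM, posterior means, bounds of an interval whose level is unstated, and the percent of gene TPM in each transcript (IsoPct). The deposited notes name assembly mm10 and GENCODE M4. The sources used here name neither the aligner nor the quantifier. Names, positions and sequences were taken from GENCODE M21 on GRCm38, by identifier without version (42462 of 43346 genes matched). Of the 32 member transcripts, 25 matched by identifier, 1 of them (Ikzf5-204) with another length, and 7 of Ikzf4 by equal length only.

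Gene levels used TPM as deposited, with detection at 1 TPM in both libraries. Pairs used log2(TPM + 0.1). Ratios between libraries used expected counts with TMM factors (edgeR 4.0.16; 1.0346 and 0.96653), rounded to whole numbers for the exact 95% interval. DESeq2 1.42.0 size factors were an alternative. The fold rule was tested on simulated data. Protein sequences were translated from M21 coding sequences with Biopython 1.88. The members and lists were chosen with earlier results of these data known. Named genes were the 5 members, in each list the 3 highest genes and the lowest, any undetected gene where 5 or fewer were, and member transcripts with IsoPct of 10 or more in either library. Some genes that this rule names are not reported here. The labels call the libraries biological replicates but name no separate culture, so SDs may be partly technical.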

Additional observations from a re-analysis of the deposited data

How the results depend on the processing

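Of the settings tried, 8 moved a count by over 1.5 times. At 5 TPM, 1 member and 3 myeloid and mast cell markers were detected. Pairs passing numbered 1 with a pseudocount of 0.01, 2 with posterior mean TPM, 8 with CPM (no length correction) and 8 with SDs of nuclear protein-coding genes (added after seeing the data). By the TPM ratio 1 member, Ikzf3, passed 2-fold. On the rescaled TPM 2 lymphoid cell markers were detected. The cause was not tested for any of these. Leaving out each replicate in turn gave 3 to 3 members detected and 4 to 5 pairs passing. No result reversed: of 100 single pair values under alternatives, 82 kept their side of the limit, 7 lost it and 11 gained it. With 1 group and 2 libraries, no paired analysis was possible because there is no second group to share replicate numbers. The fewest reads stood behind Ikzf3 (33 and 19 counts) and Ikzf4 (221 and 184), which limits the precision of their levels and transcript shares, and the difference of Ikzf1-204 between libraries rests on 2 values.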
